A study of Drosophila melanogaster with 16 samples.

Results

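The dpr and DIP genes of Drosophila melanogaster are described here in mRNA bound to ribosomes of fru P1 neurons and in mRNA of the whole head. The members were all genes whose FlyBase symbol is dpr followed by a number or DIP followed by a Greek letter. There were 32 of them, 21 dpr and 11 DIP genes, among the 17753 genes of the count files, and they held 330 of the 87508 exon entries. Heads of males and of females were each sequenced as TRAP and as total mRNA, with 4 libraries in every group. TRAP stands for affinity purification of translating ribosomes. A GFP-tagged RpL10A is made only in the driver's cells, and mRNA is recovered with the ribosomes that hold it. Total mRNA is that of all cells in a head lysate, and no source used here states which libraries share a lysate. All 4 groups had the same genotype, w; P[UAS-Gal4]/P[UAS-GFP::RpL10A]; fru P1-Gal4/+, and differed only in sex and fraction. The flies were 10 to 12 days past eclosion, were kept on a light and dark cycle, and received no treatment. Each sample pooled about 1000 sex-sorted heads, so a library is a mean over many animals. A total mRNA library is a mean over all head cells. TRAP is aimed at all head cells that use the fru P1-Gal4 driver, but genes of other cell types were still present in it, as given below. The study calls the TRAP samples biological replicates, but no source used here says what separated the 4 libraries of a group, such as a collection of flies, and p-values measure the spread between these libraries only. Values of a group are given in the order of replicate number, which was 1, 2, 4 and 5 in male TRAP, 1 to 4 in male total mRNA and 2 to 5 in both female groups. Log2 fold changes are given with the standard error of the fit (SE), and mean levels with the SD over 4 libraries.

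The Dpr proteins (named for a defective proboscis extension response) and the Dpr-interacting proteins, or DIPs, are small cell surface proteins of the immunoglobulin superfamily. A Dpr on one neuron binds particular DIPs on another, and the resulting code of matched pairs is known for its part in the choice of synaptic partners, in layer targeting and in cell survival in the fly visual system, mushroom body and motor system. The fru P1 promoter drives the sex-specific transcripts of fruitless, and the neurons that use it direct courtship. Members are ordered below by their best-known partners: DIP-alpha with dpr6 and dpr10, DIP-gamma with dpr11, dpr15, dpr16 and dpr17, DIP-delta with dpr12, DIP-beta with dpr8, dpr9 and dpr21, DIP-eta, DIP-theta and DIP-iota with dpr1 to dpr5, and DIP-epsilon and DIP-zeta with dpr13, dpr14, dpr19 and dpr20. The genes dpr7, dpr18, DIP-kappa and DIP-lambda were placed in no set. Binding is broader than this order, in which each member stands once.

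Exon counts summed to between 15353672 and 25419045 per library, and a count of 3 in an exon corresponded to 0.118 to 0.195 CPM (counts scaled to the library total, as usual). The TRAP fraction carried the marks of neurons: fru itself was higher in TRAP than in total mRNA in both sexes (log2 fold change 1.53 ± 0.14 in males and 1.53 ± 0.14 in females), and of 18 neuron markers 17 were higher in male TRAP and 18 in female TRAP, with medians of 0.91 and 1.38. The 12 glia markers tested were all lower in TRAP of both sexes (medians of -1.10 and -1.54), and 15 of 16 photoreceptor genes were lower in each sex. Summed photoreceptor genes were at 50500 CPM in male TRAP replicate 5, where the other male TRAP libraries had 25920 to 32790 CPM. Glia (1002 CPM) and fat body genes (6571 CPM) were also at their male TRAP maximum in this library, and without it 30 of the 32 members were higher in male TRAP. In such bulk samples fewer cells of a type and less mRNA per cell cannot be told apart.

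Every member was detected in every group, and the median dpr gene stood above the median DIP gene when levels were compared per kb of exon, though the families overlapped. The median dpr gene was at 24.8 CPM per kb in male TRAP, against 12.4 in male total mRNA, and at 22.3 in female TRAP, against 9.90 in female total mRNA. The median DIP gene was at 4.75 CPM per kb in male TRAP, against 2.11 in male total mRNA, and at 5.34 in female TRAP, against 1.83 in female total mRNA. The highest level per kb in TRAP belonged to dpr7 (60.3 ± 13.2 CPM per kb in male TRAP and 56.8 ± 3.70 in female TRAP, SD, n = 4 each), followed by dpr12 (51.3 ± 4.06 and 52.1 ± 8.86). Next came dpr4 in male TRAP (38.5 ± 2.55) and dpr14 in female TRAP (46.4 ± 10.7). Libraries of neighbours in this order overlapped for 28 of the adjacent pairs in male TRAP and 30 in female TRAP, so the order is loose. The pairs that did not overlap were dpr12 over dpr4, dpr1 over dpr11 and DIP-alpha over DIP-iota in male TRAP, and dpr17 over dpr8 in female TRAP. In total mRNA dpr7 stood apart from dpr12 in both sexes. The lowest member in every group was DIP-iota, followed by DIP-alpha. Among the DIP genes, DIP-gamma was the highest in TRAP (26.96 ± 2.10 CPM per kb in male TRAP and 28.6 ± 4.17 in female TRAP), above each of its 4 Dpr partners and above most dpr genes. In male TRAP dpr6 (4.08 ± 0.217 CPM per kb) and dpr2 (4.49 ± 0.385) lay below the median DIP gene.

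**Figure D1:**
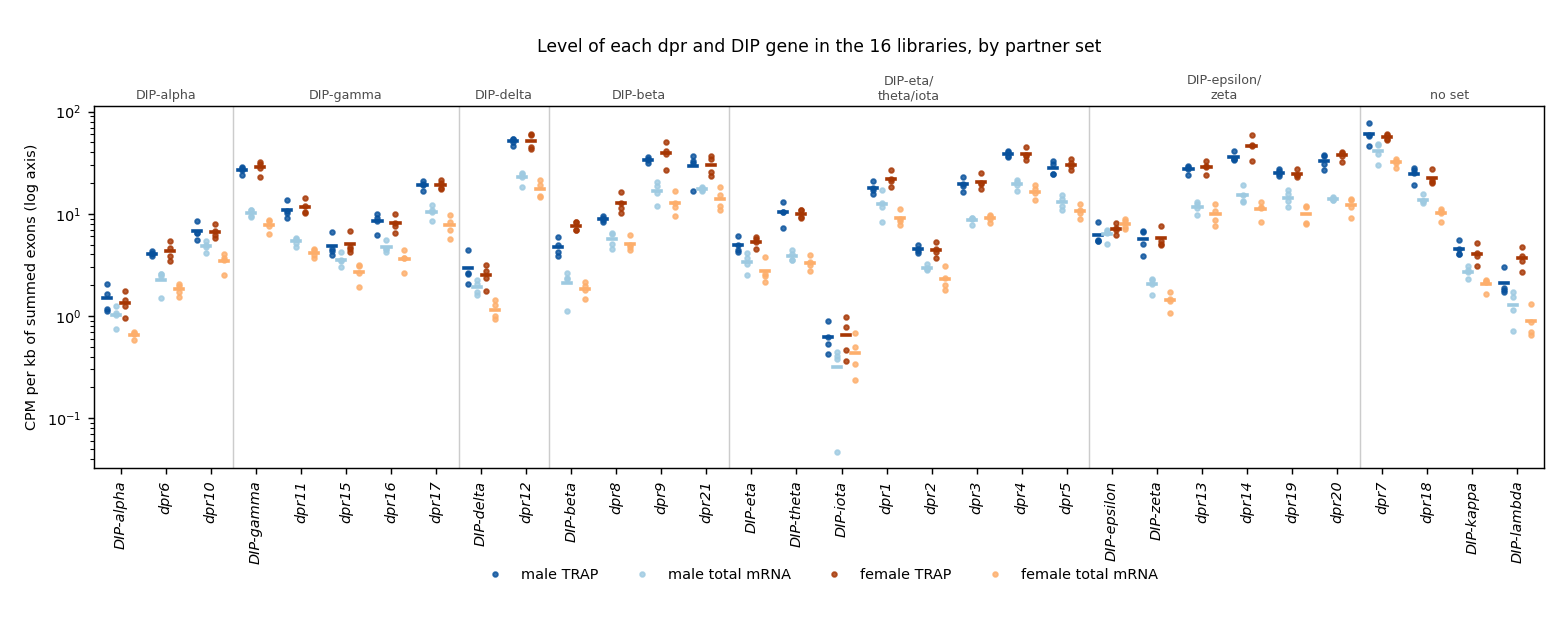
Level of the 32 dpr and DIP genes in CPM per kb of summed exon intervals, on a log axis, ordered by partner set. Points are the 4 libraries of each group and bars their means, and the median dpr gene was at 24.8 CPM per kb in male TRAP against 4.75 for the median DIP gene.

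The first question was whether the family is over-represented on the ribosomes of fru P1 neurons relative to the whole head. Nearly all members were. Summed per gene and tested with the quasi-likelihood test of edgeR at an FDR (Benjamini-Hochberg adjusted p) under 0.05, 29 of 32 members were higher on the ribosomes in males and 0 were lower, where 31.4% of all 10747 genes tested were higher and 31.6% lower. In females, 30 of 32 members were higher in TRAP and 0 were lower, where 34.1% of all genes were higher and 35.6% lower. The median log2 fold change of the members was 0.85 in males and 1.27 in females, beside 0.02 and 0.01 over all genes tested. Among the dpr genes 20 of 21 passed in males and 21 in females, and among the DIP genes 9 of 11 in each sex. The libraries themselves were apart: in 23 members every male TRAP library lay above every male total mRNA library (25.9% of all genes), and in 30 members every female TRAP library lay above every female total mRNA library (31.8% of all genes).

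The exon comparison used by the study, an edgeR exact test per exon called at an FDR under 0.2, also found nearly all members higher. Of 118 member exons tested in males, 110 were higher in TRAP and 0 were lower (31.4% of all exons tested were higher and 29.6% lower), in 29 members. Of 80 member exons tested in females, 79 were higher and 0 were lower (40.5% of all exons were higher and 36.8% lower), in 28 members. No exon of DIP-iota or DIP-lambda passed the filter on low counts in either sex, nor did one of DIP-zeta or dpr16 in females. The members were chosen as a gene family with earlier results of these data known, so these shares describe the family beside all genes and are no test of the family.

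**Figure D2:**
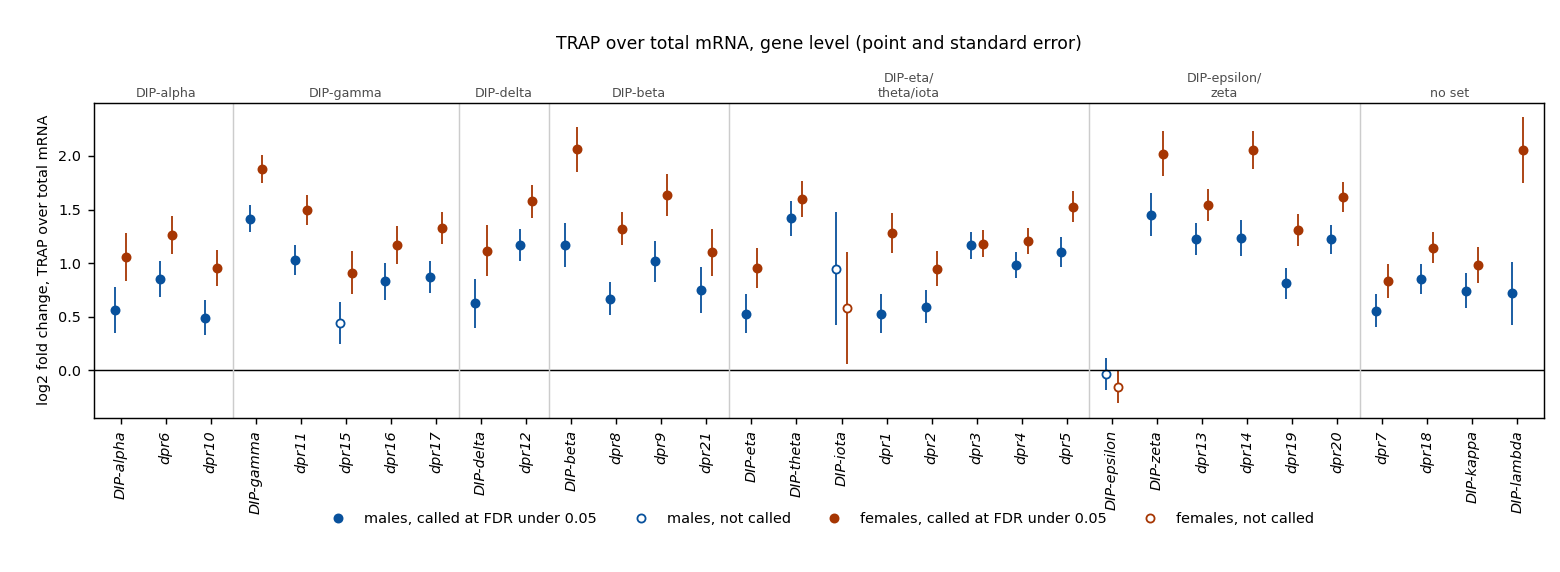
Log2 fold change of TRAP over total mRNA for each member in males and females, from counts summed per gene, with the standard error of the fit. Filled points passed an FDR under 0.05 (29 of 32 members in males and 30 in females), and DIP-epsilon lay at -0.03 in males and -0.16 in females.

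DIP-alpha (chromosome X, 3507245 to 3571649 in dm6) pairs with dpr6 and dpr10, a code known from medulla neurons and from motor neurons reaching their muscles. The mRNA of DIP-alpha was at 18.6, 14.8, 10.6 and 10.2 CPM in the male TRAP libraries, against 6.65, 9.17, 11.2 and 9.66 CPM in male total mRNA. Its level in females was 12.9, 8.64, 11.2 and 15.8 CPM in TRAP, against 5.92, 5.18, 6.05 and 6.26 CPM in total mRNA. The male groups overlapped and the female groups did not, and the log2 fold change was 0.56 ± 0.21 in males (SE, edgeR FDR 0.0290) and 1.05 ± 0.22 in females (FDR 4.26e-04). The male difference rested on few libraries, since it fell to 0.37 with an FDR of 0.138 without male TRAP replicate 1, and also missed the threshold without male TRAP replicate 2 or without male total mRNA replicate 1 or 2. One summed exon of DIP-alpha overlaps exons of CG2875 and ppk8, and counting did not use strand, but the fold change without it was 0.63 in males and 1.12 in females.

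Both Dpr partners of DIP-alpha were more abundant than DIP-alpha in each group. The libraries of dpr6 (chromosome 3L, 9974651 to 10139360) held 24.1, 27.3, 25.3 and 26.3 CPM in male TRAP, against 9.38, 15.6, 16.1 and 16.1 CPM in male total mRNA. In females dpr6 reached 29.1, 21.6, 24.5 and 34.5 CPM in TRAP, against 9.67, 10.8, 12.5 and 12.9 CPM in total mRNA. Neither sex showed any overlap, and the folds of dpr6 were 1.80 in males (FDR 3.52e-04) and 2.40 in females (FDR 5.75e-06). For dpr10 (chromosome 3L, 10147454 to 10186108), which runs toward dpr6 from the opposite strand with its 3′ end 8.09 kb from that of dpr6, male TRAP libraries had 30.5, 22.8, 19.5 and 22.8 CPM, against 14.6, 19.2, 17.4 and 16.7 CPM in male total mRNA. Female TRAP libraries had 24.2, 21.8, 20.6 and 28.0 CPM of dpr10, against 8.84, 14.5, 12.5 and 13.1 CPM in female total mRNA. The lowest dpr10 value in male TRAP lay just above the highest in male total mRNA, and the fold was 1.41 in males (FDR 0.0137, 0.0667 without male TRAP replicate 1) and 1.94 in females (FDR 6.64e-05). Male TRAP replicate 1 had the highest value of both DIP-alpha and dpr10 but the lowest of dpr6.

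DIP-gamma (chromosome 3R, 28925004 to 28970372) and dpr11 are known as a matched pair of the R7 photoreceptor and its Dm8 target and of the larval neuromuscular junction. DIP-gamma was among the 3 members with the largest male differences: its libraries held 83.4, 89.0, 87.8 and 74.6 CPM in male TRAP, against 33.5, 29.8, 33.6 and 28.8 CPM in male total mRNA. Female TRAP libraries reached 88.1, 70.7, 99.6 and 96.3 CPM, against 19.5, 27.3, 26.4 and 23.5 CPM in female total mRNA. The groups were far apart in both sexes, with folds of 2.67 in males (edgeR FDR 1.77e-07) and 3.67 in females (FDR 6.66e-09). All 11 summed exon intervals of DIP-gamma had a higher mean in TRAP in each sex. Of these, 1 overlaps CG11828, and without it the log2 fold change was 1.35 in males and 1.72 in females, against 1.41 and 1.88 with it. The fold of DIP-gamma exceeded that of each of its 4 Dpr partners in both sexes, and the difference between genes was not tested.

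Of those partners, dpr11 (chromosome 3R, 6529169 to 6593330) was at 63.4, 49.8, 47.6 and 42.6 CPM in male TRAP, against 21.9, 24.0, 27.2 and 26.5 CPM in male total mRNA. In female TRAP dpr11 was at 66.8, 48.4, 47.7 and 55.6 CPM, against 18.5, 21.2, 17.4 and 20.4 CPM in female total mRNA. It was close to 2-fold higher in male TRAP (2.04, FDR 7.97e-06) and 2.82-fold higher in female TRAP (FDR 9.00e-08). The most abundant Dpr of the set, dpr17 (chromosome 3R, 12094876 to 12111420), had 74.2, 86.6, 93.6 and 88.0 CPM in male TRAP, against 37.9, 48.5, 54.3 and 46.2 CPM in male total mRNA. The female values of dpr17 were 89.7, 78.1, 80.4 and 96.9 CPM in TRAP, against 25.3, 37.3, 31.0 and 44.0 CPM in total mRNA. Its folds were 1.83 in males (FDR 8.66e-05) and 2.51 in females (FDR 7.67e-07), and the groups were apart.

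The male TRAP libraries of dpr16 (chromosome 3R, 5150908 to 5170121) held 26.4, 24.9, 29.0 and 18.2 CPM, against 13.4, 16.3, 12.3 and 13.3 CPM in male total mRNA. Its female TRAP libraries held 29.2, 22.3, 19.0 and 23.8 CPM, against 7.72, 10.8, 10.9 and 12.8 CPM in female total mRNA. The log2 fold change of dpr16 was 0.83 ± 0.17 in males (FDR 4.65e-04) and 1.17 ± 0.18 in females (FDR 1.55e-05), and 0.84 and 1.11 without the last exon, which overlaps cno. On its exon entry with the highest mean count alone, the female value of dpr16 was 0.51 and missed the threshold (FDR 0.112), against 0.86 (FDR 0.00977) in males. The weakest of the set was dpr15 (chromosome 3R, 12138833 to 12158595), at 23.0, 15.8, 13.8 and 15.0 CPM in male TRAP, against 14.9, 12.0, 12.2 and 10.4 CPM in male total mRNA. The female libraries of dpr15 were clear of each other, with 23.9, 14.8, 15.8 and 16.4 CPM in TRAP, against 6.75, 11.0, 9.26 and 10.8 CPM in total mRNA. In males the groups overlapped and dpr15 missed the threshold (log2 fold change 0.44 ± 0.20, FDR 0.0573), while in females it was 1.88-fold higher (FDR 6.48e-04). With the replicate number as a block dpr15 passed in males (0.49, FDR 0.018), which makes 30 of 32 members, and its exon that runs into the 3′ UTR was called in males at 0.96 while an internal coding exon was not, at 0.37.

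DIP-delta (chromosome 3L, 5424109 to 5442399) and dpr12 are known as the pair that matches mushroom body gamma axons with dopaminergic neurons. DIP-delta was at 21.4, 12.7, 12.5 and 9.97 CPM in male TRAP, against 7.71, 10.9, 9.78 and 8.28 CPM in male total mRNA. In female TRAP it was at 15.3, 8.40, 11.2 and 13.2 CPM, against 6.15, 4.79, 4.45 and 6.82 CPM in female total mRNA. The male groups overlapped, and the male fold of 1.54 (FDR 0.0235) missed the threshold without male TRAP replicate 1, the highest library (log2 fold change 0.36, FDR 0.144), and without male total mRNA replicate 1 or 4. In females the fold was 2.17 (FDR 4.67e-04).

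Its partner dpr12 (chromosome 2R, 5804712 to 5860831) was one of the most abundant members. Male TRAP libraries had 256, 239, 255 and 215 CPM of dpr12, against 86.9, 118, 108 and 117 CPM in male total mRNA. Female TRAP libraries had 276, 205, 214 and 286 CPM of dpr12, against 69.8, 89.6, 68.0 and 102 CPM in female total mRNA. The lowest TRAP library stood well above the highest total mRNA library in each sex, and the folds were 2.25 in males (FDR 5.12e-06) and 2.98 in females (FDR 1.15e-07). Per kb, DIP-delta was at 2.94 ± 1.04 CPM in male TRAP beside 51.3 ± 4.06 for dpr12, so the Dpr mRNA of this pair was far more abundant than the DIP mRNA in the tissue sampled.

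**Figure D3:**
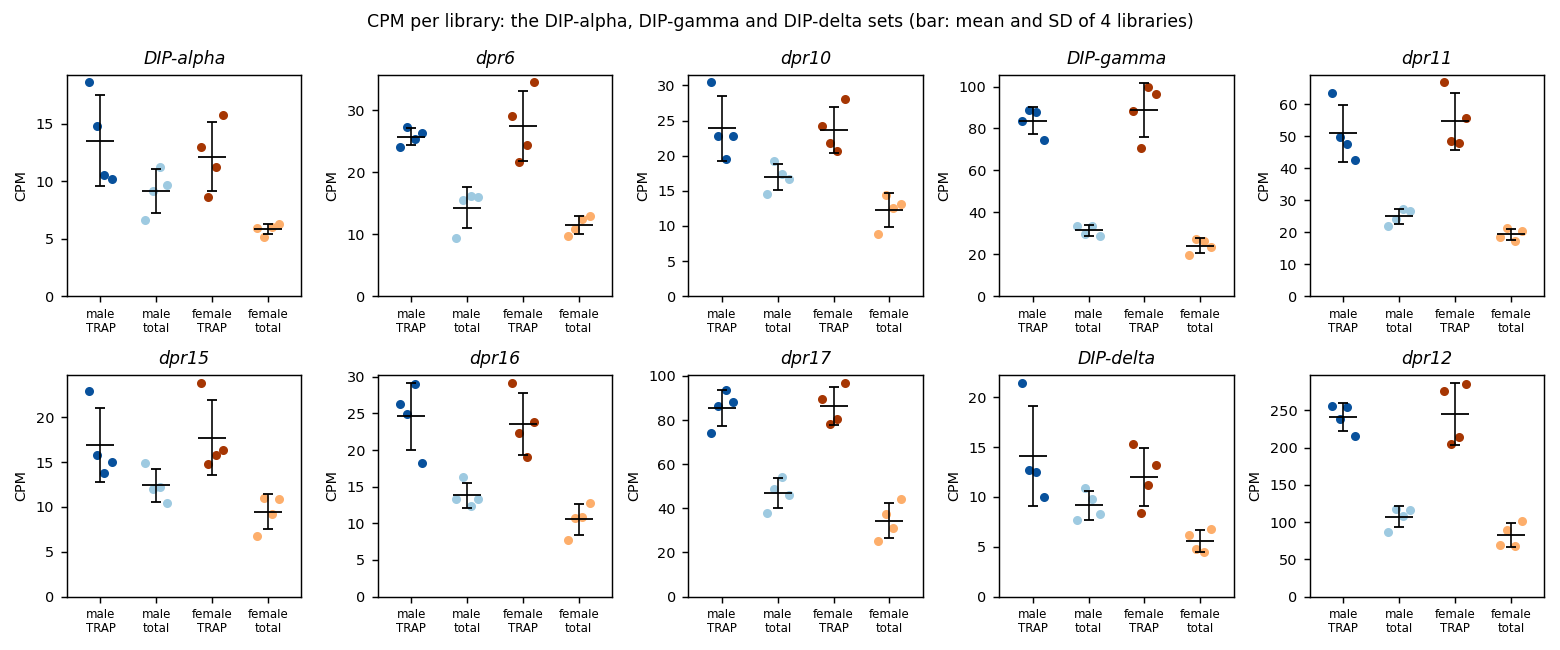
CPM of the 10 members of the DIP-alpha, DIP-gamma and DIP-delta sets in each library of the 4 groups, with the mean and SD of 4 libraries. The groups of DIP-gamma, dpr6, dpr10, dpr11, dpr12, dpr16 and dpr17 did not overlap between TRAP and total mRNA in either sex, and those of DIP-alpha, DIP-delta and dpr15 overlapped in males.

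DIP-beta (chromosome X, 21422115 to 21457738), a receptor known from lamina neurons, was one of 4 members with nearly equal and highest female differences (log2 2.06 ± 0.21), beside dpr14 (2.06 ± 0.18), DIP-lambda (2.06 ± 0.31) and DIP-zeta (2.02 ± 0.21). Its level was 43.9, 37.1, 36.8 and 43.9 CPM in female TRAP, against 10.3, 9.50, 7.65 and 11.3 CPM in female total mRNA. The male libraries had 31.5, 26.1, 20.6 and 22.1 CPM in TRAP, against 5.97, 12.3, 12.2 and 14.0 CPM in total mRNA. The groups did not overlap in either sex, and DIP-beta was 2.26-fold higher in male TRAP (FDR 1.01e-04) and 4.17-fold higher in female TRAP (FDR 2.17e-07). All 3 of its Dpr partners here were also higher in TRAP of both sexes. The log2 fold changes of the ligands were 0.67 in males and 1.32 in females for dpr8, 1.02 and 1.63 for dpr9, and 0.75 and 1.10 for dpr21. The level of dpr9 averaged 163 ± 8.80 CPM in male TRAP, against 80.8 ± 17.6 CPM in male total mRNA, and 190.2 ± 46.8 CPM in female TRAP, against 61.3 ± 14.8 CPM in female total mRNA (SD, n = 4 each). For dpr8 the female values were 63.1, 50.1, 56.7 and 81.4 CPM in TRAP, against 22.0, 24.5, 23.2 and 30.8 CPM in total mRNA. In males dpr8 was at 47.6, 45.6, 41.5 and 43.2 CPM in TRAP, against 22.7, 31.5, 25.1 and 32.5 CPM in total mRNA. Neither sex showed overlap in dpr8, and in dpr21 one library did not follow the others. Male TRAP replicate 5 had 16.5 CPM of dpr21, just below each of the male total mRNA libraries, which had 16.6, 17.6, 17.1 and 18.4 CPM.

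In the set of DIP-eta, DIP-theta and DIP-iota, 7 of 8 members were higher in TRAP of each sex. DIP-theta (chromosome 2L, 5626291 to 5658560) had one of the 3 largest male differences, with 37.7, 30.2, 29.9 and 21.0 CPM in male TRAP, against 12.6, 11.6, 10.1 and 10.1 CPM in male total mRNA. Female TRAP libraries had 31.4, 26.003, 26.7 and 31.4 CPM of DIP-theta, against 7.87, 9.03, 9.79 and 11.5 CPM in female total mRNA. The folds were 2.67 in males (FDR 1.57e-06) and 3.03 in females (FDR 2.49e-07), and all 13 summed exon intervals had a higher mean in TRAP in each sex. In DIP-theta 2 of these intervals overlap lncRNA:CR44822. Over 18 alternatives, including that without shared exons, its log2 fold change was at least 1.28 in males and 1.51 in females. The neighbour of DIP-theta, DIP-eta, 8.34 kb away on the same strand, differed by 0.53 in males (FDR 0.0173) and 0.95 in females (FDR 2.11e-04). DIP-eta averaged 14.7 ± 2.35 CPM in male TRAP, against 10.1 ± 2.06 CPM in male total mRNA, and 15.95 ± 1.83 CPM in female TRAP, against 8.25 ± 2.16 CPM in female total mRNA. The male value of DIP-eta missed the threshold without male TRAP replicate 1 (FDR 0.0672) or male total mRNA replicate 3 (FDR 0.0666).

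DIP-iota (chromosome 2L, 6617134 to 6621700) was near the limit of detection. It had 0.825, 0.699, 0.567 and 1.18 CPM in male TRAP, against 0.497, 0.0624, 0.590 and 0.540 CPM in male total mRNA, and 1.31, 0.485, 1.03 and 0.616 CPM in female TRAP, against 0.899, 0.314, 0.445 and 0.654 CPM in female total mRNA. Counts of DIP-iota lay between 1 and 23 per library and the groups overlapped in both sexes. Its log2 fold change of 0.95 ± 0.52 in males (FDR 0.122) and 0.58 ± 0.52 in females (FDR 0.330) could not be told from 0 at this depth.

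The Dpr ligands of that set, dpr1 to dpr5, were all higher in TRAP of both sexes. The founding member of the family, dpr1, whose loss alters the response to salt, differed by 0.53 in males (FDR 0.0170) and 1.28 in females (FDR 9.16e-06). Its male value missed the threshold without male TRAP replicate 1 (FDR 0.058) or male total mRNA replicate 1 (FDR 0.0622). The other 4 differed by 0.60 (dpr2) to 1.17 (dpr3) in males and by 0.95 (dpr2) to 1.52 (dpr5) in females, and dpr3 had nearly the same fold in the sexes (2.24 and 2.27). Their female TRAP means were 79.3 ± 13.4 CPM (dpr1), 13.4 ± 2.0 CPM (dpr2), 65.1 ± 9.84 CPM (dpr3) and 56.6 ± 5.83 CPM (dpr5), against female total mRNA means of 32.7 ± 5.26, 7.01 ± 1.71, 28.7 ± 2.33 and 19.7 ± 2.86 CPM in the same order of genes. Their male TRAP means were 64.6 ± 8.42, 13.6 ± 1.17, 61.4 ± 8.71 and 52.5 ± 7.92 CPM, against male total mRNA means of 44.8 ± 13.2, 9.01 ± 0.530, 27.4 ± 1.80 and 24.4 ± 3.65 CPM. Of these 4, dpr1 alone had overlapping groups, in males. The most abundant per kb of the set, dpr4 (chromosome 3R, 11533483 to 11542949), had 107, 110.3, 124 and 119.5 CPM in male TRAP, against 61.2, 56.7, 50.4 and 64.1 CPM in male total mRNA. Female TRAP libraries had 135, 101, 110.1 and 112 CPM of dpr4, against 40.7, 52.0, 48.1 and 57.2 CPM in female total mRNA. The groups of dpr4 were apart in both sexes, with folds of 1.98 and 2.31, and without the 2 intervals that overlap asRNA:CR45056 the log2 fold change was 1.04 in males and 1.34 in females.

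DIP-zeta (chromosome 2L, 9051631 to 9071164) was among the 3 members with the highest male differences, all within their standard errors of each other, with 24.4, 18.2, 23.8 and 13.7 CPM in male TRAP, against 7.27, 8.11, 5.74 and 8.04 CPM in male total mRNA. In female TRAP it had 27.2, 17.5, 19.2 and 17.9 CPM, against 5.17, 5.03, 3.83 and 6.17 CPM in female total mRNA. The folds of DIP-zeta were 2.74 in males (FDR 1.03e-05) and 4.06 in females (FDR 2.61e-07), and no libraries overlapped. Of its summed intervals, 1 overlaps lncRNA:CR44483. Over 18 alternatives, including that without shared exons, the log2 fold change of DIP-zeta was at least 1.34 in males and 1.85 in females.

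DIP-epsilon (chromosome 2L, 6377771 to 6411326) was the one member with negative differences, neither of which passed the test. Its libraries held 25.97, 17.2, 17.1 and 17.6 CPM in male TRAP, against 16.03, 21.3, 22.0 and 20.3 CPM in male total mRNA. In females they held 22.8, 21.6, 19.8 and 25.6 CPM in TRAP, against 23.4, 27.8, 26.7 and 22.1 CPM in total mRNA. The groups overlapped in both sexes, and the log2 fold change was -0.03 ± 0.15 in males (FDR 0.850) and -0.16 ± 0.15 in females (FDR 0.366). The standard error of 0.15 in each sex was small beside the median difference of the members. With library totals in place of TMM factors the female value turned to 0.40 with an FDR of 0.034, which lies below the shift of 0.55 that this scaling gave to the median of all genes. DIP-epsilon has a higher level per kb in total mRNA (6.33 ± 0.854 CPM per kb in males and 7.94 ± 0.851 in females) than the other DIP genes apart from DIP-gamma. In total mRNA DIP-gamma was higher in males (10.1 CPM per kb) and about level in females (7.78), where the libraries of both genes overlapped.

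The exons of DIP-epsilon did not all behave alike. In females, 9 of its 10 summed intervals had a lower mean in TRAP than in total mRNA. The interval next to the last, at 6379110 to 6379280 of chromosome 2L, averaged 2.29 ± 0.523 CPM in female TRAP, against 3.70 ± 0.716 CPM in female total mRNA (SD, n = 4 each). The last interval, at 6377771 to 6379027, which runs from coding sequence into the 3′ UTR, averaged 14.0 ± 2.96 CPM in female TRAP, against 12.2 ± 0.864 CPM in female total mRNA. This last exon was the one tested, and it was called higher in females at the FDR under 0.2 (log2 fold change 0.34, FDR 0.114) and not in males (-0.03, FDR 0.953).

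The 4 Dpr ligands of the set, dpr13, dpr14, dpr19 and dpr20, were all higher in TRAP of both sexes, dpr19 with the smallest difference of them. In dpr14 (chromosome X, 7903704 to 7908286) female TRAP libraries had 182, 129.5, 183 and 232 CPM, against 32.6, 46.0, 44.4 and 51.2 CPM in female total mRNA. Male TRAP libraries had 134, 159.8, 131 and 135 CPM of dpr14, against 50.9, 59.8, 75.2 and 52.0 CPM in male total mRNA. That is 2.35-fold in males (FDR 1.09e-05) and 4.17-fold in females (FDR 3.58e-08). The others differed by 0.81 (dpr19) to 1.23 (dpr13) in males and by 1.31 (dpr19) to 1.62 (dpr20) in females. In female TRAP dpr13 averaged 94.6 ± 12.2 CPM, dpr19 60.8 ± 4.95 CPM and dpr20 101 ± 10.5 CPM, against 32.5 ± 7.15, 24.5 ± 5.47 and 33.1 ± 6.11 CPM in female total mRNA. In male TRAP the same genes averaged 89.4 ± 7.59, 62.7 ± 3.91 and 89.4 ± 13.6 CPM, against 38.3 ± 4.81, 35.7 ± 5.75 and 38.4 ± 1.11 CPM in male total mRNA. No library of TRAP met one of total mRNA in any of these 4 ligands.

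Among the members in no set, dpr7 (chromosome 4, 247124 to 253329) had the highest level per kb and yet one of the lowest differences. It had 119, 88.8, 87.5 and 70.4 CPM in male TRAP, against 45.2, 72.9, 71.1 and 59.0 CPM in male total mRNA, where 1 male TRAP library lay below 2 of the male total mRNA libraries. Female TRAP libraries of dpr7 had 91.7, 81.9, 89.9 and 80.6 CPM, against 48.2, 52.3, 42.2 and 50.3 CPM in female total mRNA. The folds were 1.47 in males (FDR 0.00484) and 1.78 in females (FDR 1.44e-04). DIP-kappa differed by 0.74 in males and 0.98 in females, and dpr18 by 0.85 and 1.15, all past the threshold and without overlap of libraries. DIP-kappa averaged 18.1 ± 2.77 CPM in male TRAP, against 10.8 ± 1.28 CPM in male total mRNA, and 16.2 ± 3.41 CPM in female TRAP, against 8.20 ± 1.14 CPM in female total mRNA. The levels of dpr18 were 65.2 ± 10.4 CPM in male TRAP, against 36.1 ± 3.48 CPM in male total mRNA, and 58.6 ± 9.08 CPM in female TRAP, against 26.5 ± 3.38 CPM in female total mRNA.

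Summed over a set, the Dpr mRNA per kb exceeded the DIP mRNA per kb in all 6 sets and all 4 groups. As a ratio, the gap in TRAP was narrowest in the DIP-gamma set, where the 4 ligands summed to 43.3 CPM per kb in male TRAP beside 26.96 for DIP-gamma, and to 44.2 in female TRAP beside 28.6. It was widest in TRAP in the DIP-delta set, with 51.3 CPM per kb of dpr12 in male TRAP beside 2.94 of DIP-delta, and 52.1 in female TRAP beside 2.50. In the DIP-alpha set dpr6 and dpr10 summed to 10.8 CPM per kb in male TRAP beside 1.51 for DIP-alpha, and to 11.0 in female TRAP beside 1.35. The largest ligand sums were those of dpr13, dpr14, dpr19 and dpr20, at 121 CPM per kb in male TRAP and 137 in female TRAP, beside 11.8 and 12.9 for DIP-epsilon and DIP-zeta. Apart from the DIP-delta set, each set holds more Dpr than DIP genes, so the sums also differ in gene number. Taken singly in male TRAP, dpr6 (4.08 CPM per kb) and dpr10 (6.74) were each above DIP-alpha. The ligands of DIP-beta (8.97 for dpr8 to 33.9 for dpr9) were each above DIP-beta (4.75). Those of DIP-epsilon (6.18) and DIP-zeta (5.62) were also each above both, from 25.4 (dpr19) to 35.7 (dpr14). In the DIP-eta, DIP-theta and DIP-iota set the single genes overlapped, with dpr2 (4.49) below DIP-theta (10.3). DIP-gamma itself was above each single ligand of its set in TRAP. These sums also pool all cells and say nothing of which cell holds a ligand or its receptor.

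DIP-lambda (chromosome 2R, 326768 to 705848) was rare, and its TRAP difference had the largest interaction with sex of all members, which did not pass the threshold. Its libraries had 7.37, 4.20, 4.43 and 4.61 CPM in male TRAP, against 1.74, 2.81, 4.22 and 3.78 CPM in male total mRNA, with overlap. In female TRAP they had 11.7, 9.61, 8.40 and 6.63 CPM, against 3.22, 1.73, 1.60 and 2.15 CPM in female total mRNA, with none. The fold was 1.65 in males (FDR 0.0398) and 4.16 in females (FDR 1.20e-05), and the male value missed the threshold in 7 of 18 alternatives, for example at an FDR of 0.158 without male TRAP replicate 1.

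Exons of one member were not equally higher in TRAP. Among members with at least 3 tested exons, the most 3′ exon had a larger log2 fold change than the most 5′ exon in 14 of 15 members in males (64.9% of all such genes) and in 12 of 12 members in females (81.7% of all such genes). In dpr12 the last exon differed by 1.24 and the first by 0.15 in males, and by 2.01 and 0.64 in females. In dpr7 the 5′ exon differed by 0.06 and the 3′ exon by 1.22 in females. The exception was dpr5 in males, where the 5′ exon differed by 1.25 and the 3′ exon by 0.95. The same direction was common among all genes. In 249 of the 286 member intervals the mean was higher in male TRAP and in 260 in female TRAP, whether or not they were tested. In 13 members (male) and 19 members (female) every interval was higher. These interval counts have no share of all genes beside them and describe the members only. In DIP-gamma, the receptor with the most tested exons, the 7 exons tested in males differed by 0.93, 0.85, 1.35, 1.25, 1.41, 1.53 and 1.60 from the 5′ to the 3′ end.

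**Figure D4:**
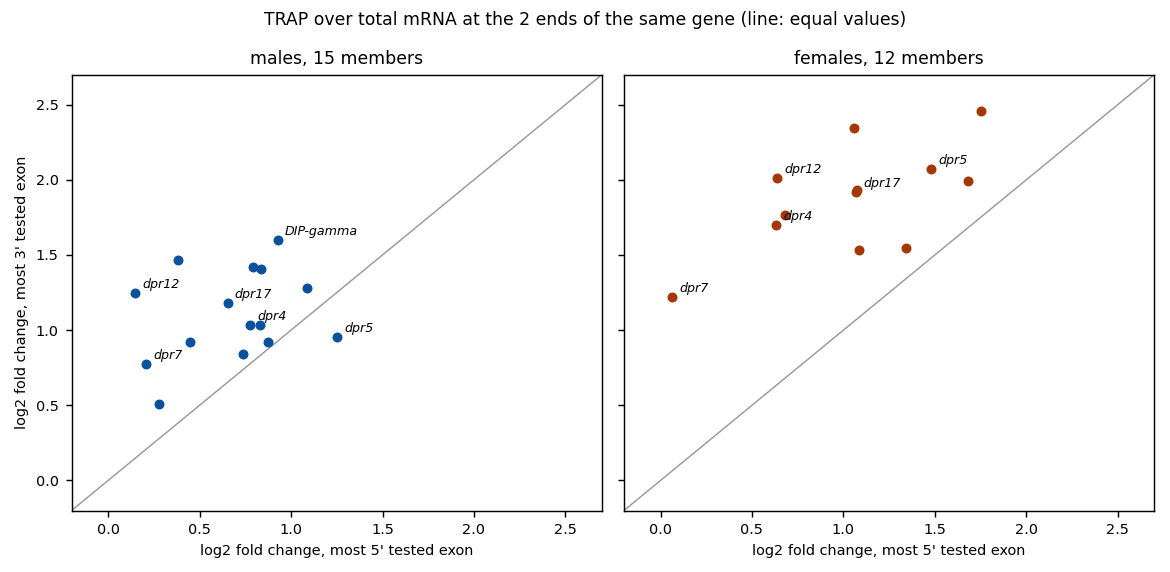
Log2 fold change of TRAP over total mRNA at the most 5′ tested exon (horizontal) and the most 3′ tested exon (vertical) of members with at least 3 tested exons, 15 in males and 12 in females. Points above the line had the larger difference at the 3′ end, as in 14 of 15 members in males and 12 of 12 in females.

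The second question was whether the sexes differ. In TRAP few member differences passed the threshold. Of 143 member exons tested between male TRAP and female TRAP, 0 were higher in males and 3 were lower (1.30% and 1.10% of all exons tested), all on the X chromosome in 2 members that bind each other, DIP-beta and dpr8. Summed per gene, 0 members were higher and 0 were lower at an FDR under 0.05 by edgeR (1.39% and 1.18% of all genes), 4 had an unadjusted p under 0.05, and DESeq2 called 2 lower. For the counts by unadjusted p and by DESeq2 no share of all genes is given, so they describe the members only. The median log2 difference of the members was -0.08, beside 0.01 over all genes. Male and female TRAP libraries overlapped in 30 of 32 members. In 0 members every male TRAP library lay above every female one, and in 2 every one lay below (3.48% and 2.90% of all genes). Markers of other cell types moved in this comparison as well. All 16 photoreceptor genes had a positive difference (median 0.65, 4 called higher), as did 11 of 12 glia genes (median 0.43, 1 called). Of the muscle genes, 13 of 14 had a negative one (median -0.48, 0 called). Of all genes tested, 52.2% had a positive difference. Summed photoreceptor genes were at 25920 to 50500 CPM in male TRAP and 16830 to 26890 CPM in female TRAP, glia genes at 556.3 to 1002 CPM and 414.7 to 574.7 CPM, and the 18 neuron markers had a median of -0.02 with 1 called lower. Of 10 fat body genes tested, 3 were called lower and 0 higher in male TRAP (median -0.25, lowest -5.66), and 3 had a positive difference. Summed fat body genes were at 3087 to 6571 CPM in male TRAP and 20170 to 32110 CPM in female TRAP. The part of these other cell types in the member differences was not tested. These comparisons use the TRAP libraries of the comparisons above and are not independent of them.

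DIP-beta had the values given above, and every male TRAP library was below every female one, as in 2.90% of all genes. Its gene-level difference was -0.69 ± 0.20 (edgeR FDR 0.0771), and its last exon, coding and 3′ UTR, at 21422115 to 21424983 was lower in male TRAP by 0.72 on the log2 scale (FDR 0.0406). That was the only DIP-beta exon tested, and 3′ exons ran lower in male TRAP among all genes as well. Of 4381 genes with several tested exons, the most 3′ exon had the higher male over female value in 23.5% (median 3′ minus 5′ -0.18). For dpr8 (chromosome X, 14322226 to 14462351), a ligand of DIP-beta, male TRAP libraries had 47.6, 45.6, 41.5 and 43.2 CPM, against 63.1, 50.1, 56.7 and 81.4 CPM in female TRAP. The groups of dpr8 did not overlap either, with a difference of -0.50 ± 0.15 (FDR 0.0976). Its exon in the 5′ UTR at 14389605 to 14389682 differed by -0.90 (FDR 0.113) and the next, at 14408206 to 14408321, by -0.85 (FDR 0.155). No member exon was called lower without male TRAP replicate 4 or without female TRAP replicate 5, only 1 without male TRAP replicate 1, and 7 exons of 3 members were called lower without female TRAP replicate 3, the shallowest library, while DESeq2 called the genes DIP-beta and dpr8 lower at FDRs of 0.0237 and 0.034. In total mRNA neither gene differed past the threshold between males and females (log2 0.20 and 0.15, FDR 0.605 and 0.576). The remaining members with an unadjusted p under 0.05 in TRAP were DIP-lambda (-0.83 ± 0.28, FDR 0.142) and dpr14 (-0.38 ± 0.17, FDR 0.298), both lower in males.

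In total mRNA the members leaned toward males. Of 72 member exons tested between male and female total mRNA, 23 were higher in males and 0 were lower (9.61% and 11.9% of all exons tested), in 15 members. At the gene level 29 of 32 members had a positive difference, as did 52.1% of all genes tested. The median of the members was 0.37, beside 0.02 over all genes. However, only dpr18 and dpr19 passed an FDR under 0.05 and 0 were lower (5.15% of all genes were higher and 7.35% lower). An unadjusted p under 0.05 was found in 18 members, and DESeq2 called 5. Here too the counts by unadjusted p and by DESeq2 have no share of all genes beside them and describe the members only. In 7 members every male total mRNA library lay above every female one and in DIP-epsilon every male library lay below (8.14% and 11.9% of all genes).

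Of the members called, dpr19 (chromosome 2L, 10376168 to 10379905) had 29.0, 38.6, 41.9 and 33.2 CPM in male total mRNA, against 19.6, 29.6, 20.03 and 28.9 CPM in female total mRNA. Its groups met at the edge, with 29.0 CPM in male replicate 1 and 29.6 CPM in female replicate 3, and the log2 difference was 0.54 ± 0.15 (FDR 0.0225). The X-linked dpr18 (chromosome X, 16063738 to 16070304) had 35.2, 34.8, 33.3 and 41.2 CPM in male total mRNA, against 21.7, 26.9, 28.1 and 29.3 CPM in female total mRNA. These groups were apart, with a difference of 0.45 ± 0.14 (FDR 0.0453). Neither call was firm, since dpr18 missed the threshold in 10 of 18 alternatives and dpr19 in 6, at FDRs of up to 0.335 and 0.0867. The largest differences were in DIP-delta (0.72, FDR 0.0573) and DIP-alpha (0.65, FDR 0.0688), neither past the threshold, though DIP-alpha passed without its exon shared with other genes (0.75, FDR 0.049). The 23 exon calls were 5 without female total mRNA replicate 2 and 32 without female total mRNA replicate 5.

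Markers of neurons as a group moved with this comparison: all 18 had a positive difference between male and female total mRNA (median 0.43), and 5 of them passed. The summed fat body genes, which include the yolk proteins, were at 7256 to 8324 CPM in male total mRNA and 99060 to 128200 CPM in female total mRNA. The part of a smaller share of neuronal mRNA in female heads in the member differences was not tested. With library totals in place of TMM factors the median of all genes moved by 0.35 and that of the members by a like amount, to 0.72.

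**Figure D5:**
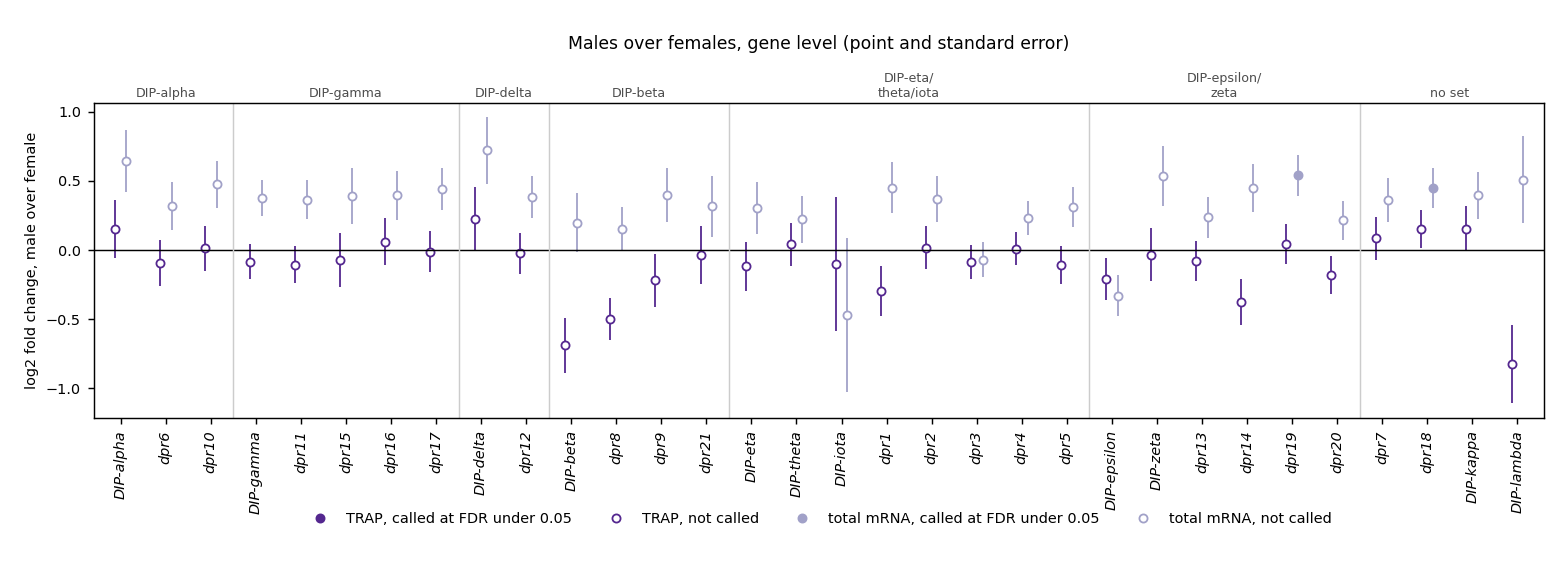
Log2 fold change of males over females for each member in TRAP and in total mRNA, from counts summed per gene, with the standard error of the fit. In total mRNA 29 of 32 members lay above 0 (52.1% of all genes), and dpr18 and dpr19 passed an FDR under 0.05. In TRAP DIP-lambda (-0.83), DIP-beta (-0.69) and dpr8 (-0.50) lay lowest.

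Whether TRAP differed from total mRNA by more in one sex was tested as an interaction over all 16 libraries. No member, 0 of 32, passed an FDR under 0.05 by edgeR or by DESeq2 (0.0930% of all genes were higher and 0.0186% lower by edgeR), and 11 had an unadjusted p under 0.05. That last count has no share of all genes beside it and describes the members only. In 30 of 32 members the difference was smaller in males, with a median of -0.42 beside 0.03 over all genes. Of all genes tested, 54.2% had a larger difference in males. The interaction values of largest size were those of DIP-lambda (-1.34 ± 0.42, FDR 0.274), DIP-beta (-0.89 ± 0.29, FDR 0.304) and dpr14 (-0.83 ± 0.24, FDR 0.257). All 18 neuron markers also had a smaller TRAP difference in males (median -0.44). Markers of other cells leaned the other way, with positive values in 12 of 12 glia genes (median 0.33), 14 of 16 photoreceptor genes (0.37), 10 of 14 muscle genes (0.25) and 10 of 10 fat body genes (0.43), none of them called. The part of the purity of the TRAP fraction in the member values was not tested. The larger folds of the members in females are therefore not shown to be a difference of single members.

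Other immunoglobulin superfamily genes were set beside the members. Of 22 Beat and Side genes, another ligand and receptor family of motor and central axons, 19 were higher in male TRAP and 20 in female TRAP, with medians of 0.72 and 1.30 and 0 lower in either sex. Of 20 tested genes of other immunoglobulin families, 9 were higher and 4 lower in male TRAP (median 0.28), and 10 were higher and 4 lower in female TRAP (median 0.29). The dpr and DIP genes, with 29 and 30 of 32 higher, lay near the Beat and Side genes and near the neuron markers in this respect, and no test of a difference between the lists was made.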

How the data were processed

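RNA of 16 samples (4 groups of 4) was poly(A)-selected, made into libraries with a non-directional kit and sequenced from a single end. According to the labels and methods of the study, reads were aligned with STAR 2.7.2a to dm6 and uniquely mapped reads counted per exon with featureCounts. The deposited values are raw counts per exon entry, counted without strand. A second deposited table of RPM was the counts divided by library totals and was not used. The depth was 15353672 to 25419045 counts per library. The SE and SD values include the spread between libraries.

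Exons with CPM above 2 in at least 60% of the 8 libraries compared were compared by the edgeR exact test (edgeR 4.0.16, R 4.3.3) after TMM scaling, called at FDR under 0.2, after the methods of the study. Since a gene with many exons is called more easily, counts were also summed per gene over 286 non-overlapping member intervals (likewise for all genes) and tested with the quasi-likelihood test over 16 libraries (CPM above 1 in at least 4 libraries, FDR under 0.05). CPM values use TMM factors, and CPM per kb divides by the summed interval length. All member entries, and 98.9% of all entries, matched an exon of BDGP6.54 in gene and position. Scripts were tested on simulated data. Replicate numbers were taken to pair TRAP and total mRNA within a sex from the data, since no source states it: deviations from the group means of samples with the same number correlated at 0.190 to 0.232 in males (numbers 1, 2 and 4; male total mRNA 3 and male TRAP 5 have no partner) and 0.104 to 0.493 in females, where number 3 correlated better with number 2. Between the sexes they did not pair.

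Per-library values were given for the DIP-alpha, DIP-gamma and DIP-delta sets, the 3 highest and 3 lowest members of each TRAP comparison, the 3 highest levels per kb and members called between sexes. The library values of dpr8 and dpr21 were added after they were seen. The members and lists were chosen with earlier results of these data known. Alternatives were DESeq2 1.42.0, RLE factors, library totals, no filter, single exons, other thresholds, the replicate block and each library left out.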

Additional observations from a re-analysis of the deposited data

Results flagged for a closer look

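Within each group of 4 libraries the highest or lowest value of a member was compared with the nearest of the others, over 128 combinations of a member and a group. In 5 of them a single library stood apart. Chance gives about 1 in 20, and 5 of 128 is not above that rate, so the values below are only described. The male TRAP library with the highest dpr14 value, replicate 2, was at 159.8 CPM, and the others were at 131.4 to 134.5 CPM. Male total mRNA replicate 1 had 9.384 CPM of dpr6, and the others had 15.6 to 16.11 CPM. Female total mRNA replicate 4 had 6.497 CPM of DIP-kappa, and the others had 8.597 to 8.876 CPM. Male TRAP replicate 1 stood apart in 2 members, with 25.97 CPM of DIP-epsilon (the others 17.05 to 17.64 CPM) and 7.365 CPM of DIP-lambda (the others 4.197 to 4.612 CPM). This is also the library without which 23 instead of 29 members were higher in male TRAP, with DIP-alpha, DIP-delta, DIP-eta, DIP-lambda, dpr1 and dpr10 no longer past the threshold.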

How the results depend on the processing

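With each library left out in turn, the members higher in TRAP at the gene level were 23 to 30 in males and 30 in females, and those between sexes 0 to 6 higher in male total mRNA, 0 to 1 lower in male TRAP and 0 to 1 lower in the interaction. Member exons higher in TRAP were then 94 to 111 (27 to 29 members) in males and 67 to 78 (22 to 28 members) in females, exons higher in male total mRNA 5 to 32 (5 to 20 members), and exons in male TRAP 0 to 7 lower (0 to 3 members) and 0 to 1 higher (0 to 1 members). Without a filter on low counts, 190 member exons were higher in male TRAP, 223 in female TRAP and 6 lower in male TRAP than in female TRAP, in 3 members. Only 1 exon, of 1 member, was lower in male TRAP than in female TRAP by the quasi-likelihood test and at FDR under 0.05. In total mRNA, exons higher in males were 57 (23 members) with library totals and 4 (4 members) at FDR under 0.05. Members higher in male total mRNA were 5 with DESeq2, 27 with library totals, 18 (and 1 lower) at FDR under 0.2, and 6 when only the 8 libraries were fitted. Members lower in male TRAP than in female TRAP were 2 with DESeq2 and 3 at FDR under 0.2, and with library totals the interaction was lower in 4. The replicate number as a block between the sexes, where the numbers pair nothing, gave 15 members higher in male total mRNA and 1 lower in male TRAP. Within a sex the block gave 30 members higher in TRAP in each sex and changed no call but that of dpr15 in males. The one member that turned round past the threshold was DIP-epsilon in females, at 0.40 with library totals, a scaling that moved the median of all genes by 0.55 in females and 0.27 in males. For single members, 19 of the alternative values in males and 1 in females (dpr16, at 0.51 on its exon entry with the highest mean count) fell short of the threshold that the main value passed. The causes were not tested. Counts of members under these alternatives are given without a share of all genes and describe the members only. Depth limits DIP-iota, with 1 to 23 counts per library.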

Other observations

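Some members are neighbours in the genome, and their values are set side by side here. The pair dpr6 and dpr10, ligands of the same DIP, lie 8.09 kb apart and differed by 0.85 and 0.49 in males and by 1.26 and 0.95 in females between TRAP and total mRNA (log2). DIP-eta and DIP-theta lie 8.34 kb apart and differed by 0.53 and 1.42 in males and by 0.95 and 1.60 in females. The genes dpr17 and dpr15, at 27.4 kb, differed by 0.87 and 0.44 in males, and dpr5 and dpr4, at 27.5 kb, by 1.11 and 0.99. No test of likeness between neighbours was made. Of the 32 members, 5 are on the X chromosome (DIP-alpha, DIP-beta, dpr8, dpr14 and dpr18), and their differences between male and female TRAP were 0.15, -0.69, -0.50, -0.38 and 0.16, of both signs.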
